A study of Mus musculus with 2 samples.

Results

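Crem, Fhl5, Rfx2, Sox30, Tbpl1, Taf7l, Pou5f2 and Ovol1, 8 of the 20476 genes of a single-cell testis table, encode regulators of transcription in male germ cells. They were chosen by symbol, and each symbol matched 1 row of the table. The table holds droplet libraries made from all cells of the testis of adult mice of strain C57BL/CJ;ICR: 1 library from mice lacking the microRNA miR-202 (miR-202-/-) and 1 from WT mice. The labels do not say how the deletion was made or how many mice went into a library. Barcode names end in 1 of 2 marks, and no label ties a mark to a genotype, so the genotypes were not compared and every value is given for mark 1 and then mark 2. The marks cannot stand as replicates, no test was run, and the intervals given are 95% intervals that cover counting error only.

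Spermatids are haploid cells that build the acrosome and the flagellum and then replace histones by protamines, and most of their gene activity ends when the nucleus condenses. Testis uses its own versions of general factors for this programme. CREM is the modulator of the cAMP response element that switches on many spermatid genes in mouse, and FHL5, also called ACT, is a LIM domain protein that serves as its coactivator in testis. RFX2 is a winged-helix factor that binds X-boxes in genes for cilia and flagella, and SOX30 is an HMG box factor; mouse mutants of either gene, and of Crem or Tbpl1, lack normal sperm because round spermatids do not mature. TBPL1 is a relative of the TATA-binding protein that pairs with TFIIA, TAF7L is a germline relative of the TFIID subunit TAF7, POU5F2 is a POU domain factor, and OVOL1 is a zinc finger factor that mouse spermatocytes need at pachytene.

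The table held 158740437 UMIs (unique molecules counted) on 12935 barcodes under mark 1 and 168967776 on 15310 under mark 2, with 73 barcode sequences under both. Stages were gated by marker genes among the 8807 barcodes with at least 10000 UMIs, and no member was a marker. The gates gave 221 spermatogonia, 121 preleptotene to zygotene, 669 pachytene and 731 diplotene or dividing spermatocytes, 1187 early and 832 later round spermatids, 184 round spermatids high in Hemgn, and elongating spermatids in 3 equal parts by UMI count: 971 RNA-rich, 970 middle and 970 RNA-poor. In all, 569 of these 6856 barcodes lay near the limit of their gate, and 433 round spermatids lay near the border of early and later. Free RNA was heavy: it was put at 3777 to 5145 UMIs per barcode from protamine and transition protein UMIs, which is 11.6% to 41.3% of the UMIs of a stage. The members' UMIs expected from it are given where they bear on a value. This estimate rests on the median barcode, while levels are sums over barcodes. In spermatogonia and spermatocytes mean protamine and transition protein UMIs lay above their medians. The gap was widest in preleptotene to zygotene cells under mark 2 (1113 against 222). There the expected UMIs can be too low and the factors over them too high. In elongating spermatids some members held fewer UMIs than expected, so there the expected UMIs can be too high and the factors too low. Leydig cells (46 barcodes) serve as a comparison outside the germ line, and whether they lack these genes was not tested. The other somatic classes were not used, since their 589 barcodes held a median of 2249 protamine and transition protein UMIs, against 220 in barcodes under 5000 UMIs.

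Levels are UMIs per 1000000 UMIs of a stage (CPM). They count 3′ ends, so levels are compared within a gene and not between genes. In a pool of barcodes, fewer cells that express a gene and less RNA per cell cannot be told apart from CPM alone. A step from one stage to the next was called when each mark showed a ratio of CPM of 1.5-fold or more in a shared direction. The stage with more of the transcript also had to hold 50 CPM and 50 UMIs, or more, for mark 1 and for mark 2. Of the 72 steps of the 8 genes, 11 were called higher and 10 lower, against 3.88% and 5.07% of all 128419 gene steps. Genes in such shares, here and below, needed only 20 UMIs over both stages, so many could not meet the 50 CPM limit. Markers and members aside, 6804 genes reached 50 CPM at any stage. The shares thus cannot show whether members or listed genes were called more often than genes of like level. Ovol1 never reached 50 CPM and could not be called, and Taf7l could not be called after the step into pachytene.

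**Figure D1:**
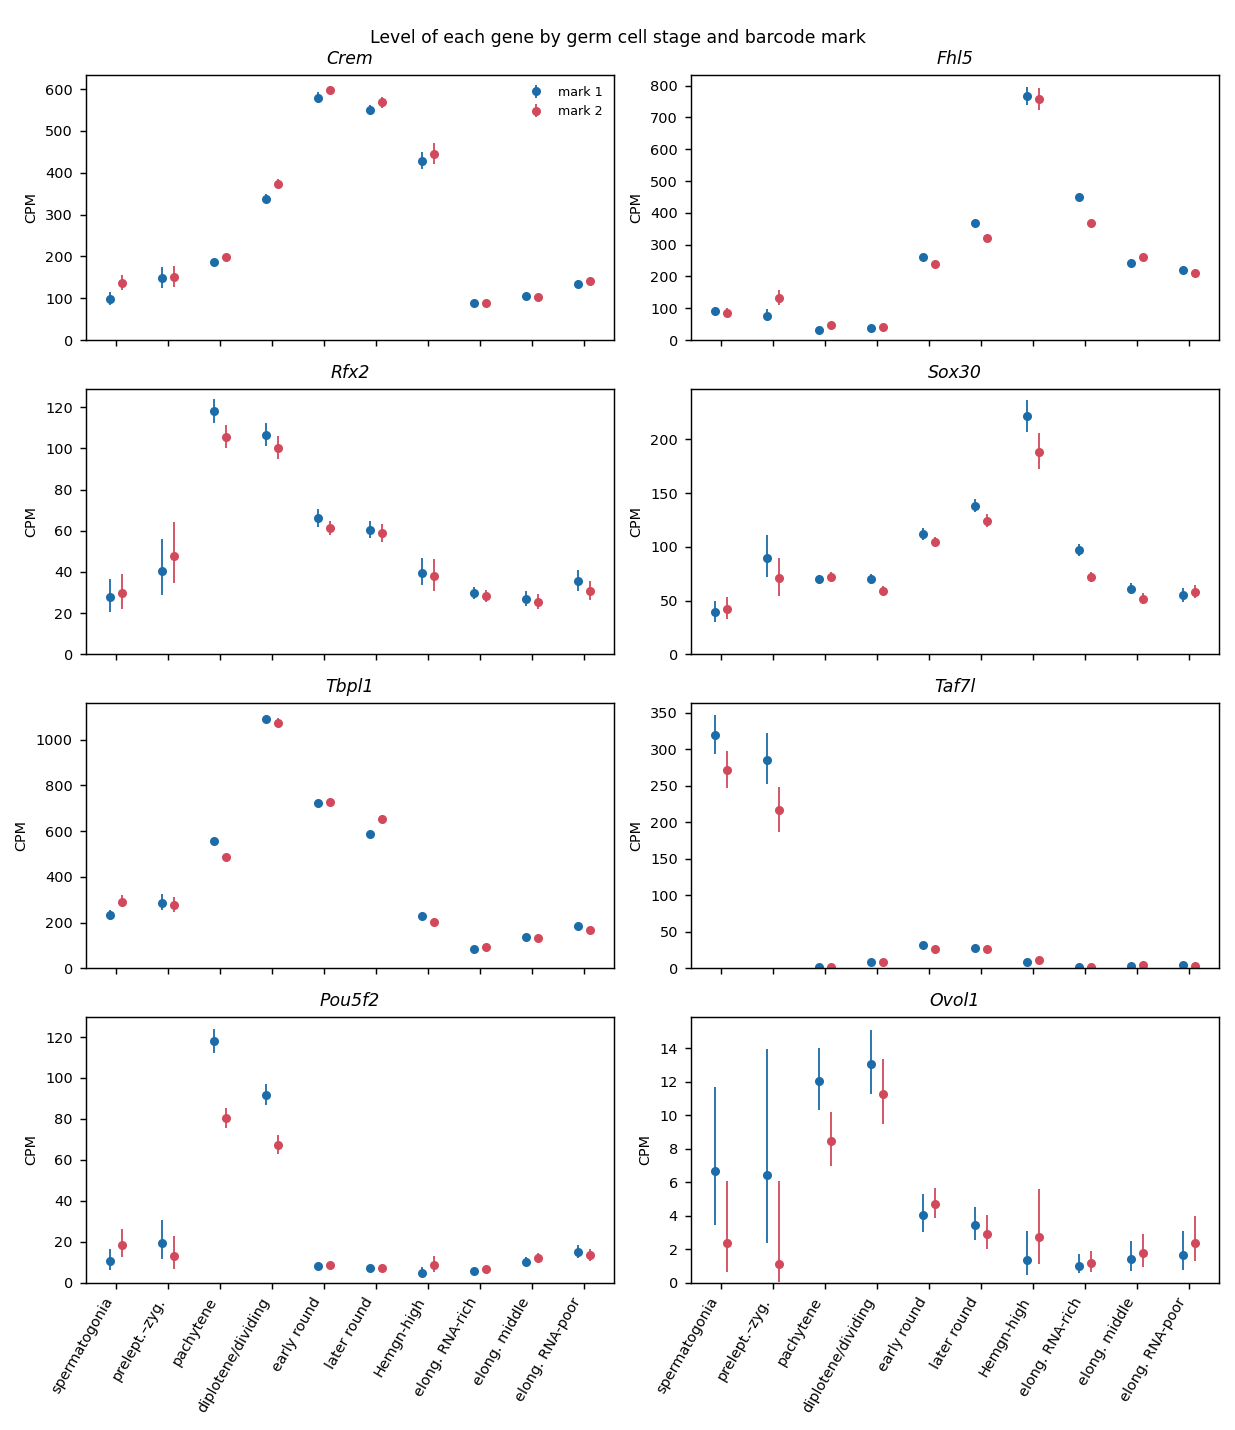
Level of each gene (CPM, linear axis from 0) in 10 germ cell stages in developmental order, for barcodes of mark 1 and mark 2, with vertical bars for the 95% counting interval. Taf7l is highest in spermatogonia, Rfx2 and Pou5f2 in pachytene cells, Tbpl1 and Ovol1 in diplotene or dividing cells, Crem in early round spermatids, and Fhl5 and Sox30 in Hemgn-high spermatids.

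The 8 genes reached their highest level at 5 different stages. Calls were spread likewise. At the step into preleptotene 1 member was called higher and none lower (3.78% and 5.39% of all genes tested). At pachytene 3 were higher and 2 lower (8.88% and 7.37%), at diplotene 2 were higher and none lower (5.95% and 6.81%), and in early round spermatids 3 were higher and 2 lower (7.01% and 6.42%). None was called between early and later round spermatids, where 0.672% of genes were higher and 0 lower. Hemgn-high over later round spermatids gave 2 higher and 2 lower (4.83% and 6.31%), and RNA-rich elongating over Hemgn-high spermatids gave 4 lower and none higher (12.7% and 2.57%). None was called at the last steps (0.155% higher and 0.502% lower, then 0.0158% and 0.0079%).

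**Figure D2:**
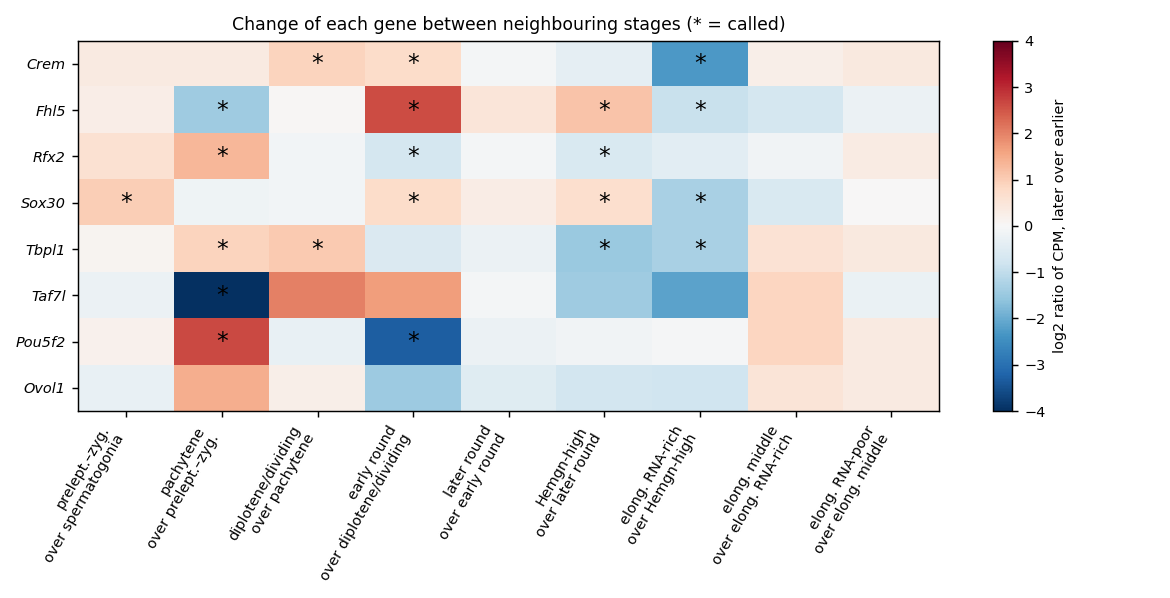
Colour gives the log2 ratio of CPM, later over earlier stage, over both marks, for each of 9 steps between neighbouring stages (columns) and each gene (rows), red higher and blue lower in the later stage; the colour scale ends at -4 and 4. The 21 asterisks mark called steps, and none lies at early to later round spermatids or within elongating spermatids.

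Crem (chromosome 18, reverse strand, GRCm38) rose at diplotene and again in early round spermatids, and fell in elongating spermatids. Its level by stage under mark 1 was 98.5 CPM in spermatogonia, 149 in preleptotene to zygotene, 188 in pachytene, 339 in diplotene or dividing, 580 in early round, 551 in later round, 429 in Hemgn-high, 88.1 in RNA-rich, 105 in middle and 135 CPM in RNA-poor elongating cells. Under mark 2 it was 136, 150, 198, 374, 599, 569, 446, 89.9, 104 and 142 CPM in the same order. The order of the stages from pachytene to RNA-rich elongating cells was the same under both marks. Diplotene or dividing over pachytene cells gave 1.80-fold (1.72 to 1.89) and 1.89-fold (1.80 to 1.98), and early round spermatids over diplotene or dividing cells 1.71-fold (1.65 to 1.78) and 1.60-fold (1.55 to 1.66). With Leiden clusters in place of gates the log2 ratio of Crem at that second step was 0.52, against 0.74, and its call was lost. RNA-rich elongating over Hemgn-high spermatids gave a ratio of 0.205 (0.190 to 0.221) and 0.202 (0.186 to 0.219). The middle and RNA-poor elongating spermatids held 0.988 to 1.13 times the Crem UMIs expected from free RNA. Tbpl1 stood at 0.749 to 0.802 times in the same parts, so the expected UMIs can be too high there. Whether Crem lay above free RNA in these parts thus cannot be said. In Leydig cells it stood at 1.68 and 2.17 times that amount, against 11.2 and 12.04 times in early round spermatids. Each of the 1187 early round barcodes had a Crem UMI, and their median was 15 UMIs at a median depth of 25436 UMIs. The gene makes many isoforms, activators and repressors among them, from 39 annotated transcripts, and 3′ tags summed per gene do not tell them apart.

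Fhl5 (chromosome 4, 25199908 to 25242876, reverse strand) stood near free RNA in spermatocytes and then rose at 2 steps in round spermatids. In pachytene cells it stood at 33.2 and 46.1 CPM, which is 1.02 and 1.38 times the UMIs expected from free RNA, and in diplotene or dividing cells at 39.5 and 41.5 CPM, 1.11 and 1.15 times. In early round spermatids it reached 262 and 239 CPM, 6.64-fold (6.07 to 7.27) and 5.76-fold (5.25 to 6.33) over diplotene or dividing cells; with free RNA subtracted the log2 ratio of Fhl5 was 5.53, against 2.62. Later round spermatids held 367 and 320 CPM, 1.40-fold and 1.34-fold over early ones, which is under the 1.5-fold limit. Hemgn-high spermatids held 768 and 758 CPM, 2.09-fold (1.997 to 2.19) and 2.37-fold (2.24 to 2.502) over later round spermatids, the highest level of the gene. Their median was 23 UMIs per barcode and none of the 184 lacked one, against a median of 7 UMIs in later round spermatids. Crem, whose protein FHL5 binds, was at a ratio of 0.780 and 0.784 in the same Hemgn-high over later round comparison. Its log2 ratio there was -0.36, near the median of -0.39 over all genes tested. The highest CPM of Crem was in early round spermatids, so the RNAs of Crem and Fhl5 did not peak at the same stage. Protein was not measured.

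In elongating spermatids Fhl5 came down toward free RNA. It held 449 and 368 CPM in the RNA-rich, 243 and 260 CPM in the middle and 219 and 212 CPM in the RNA-poor part, and its UMIs were 9.64 and 7.62, then 3.02 and 3.33, then 1.90 and 2.01 times those expected from free RNA. Leydig cells stood at 1.40 and 1.86 times for Fhl5, little below the RNA-poor part. Such factors may not compare between kinds of cells. Tbpl1 stood at 1.96 and 1.57 times in Leydig cells but at 0.749 and 0.762 times in the RNA-poor part. The Leydig value therefore cannot say how much Fhl5 RNA the RNA-poor part held. In that part the other 7 genes lay between 0.512 and 1.58 times the UMIs expected from free RNA. RNA-rich elongating over Hemgn-high spermatids was called lower, with 0.584 (0.559 to 0.611) and 0.486 (0.461 to 0.513) of that level. At that step the median log2 ratio of all genes tested was -0.81, and with stages scaled by median ratios in place of UMI totals the log2 ratio of Fhl5 was -0.00 and its call was lost. The call of Fhl5 as lower in pachytene than in preleptotene to zygotene cells (33.2 and 46.1 against 77.0 and 133 CPM) compares levels near free RNA: those earlier cells held 0.873 and 1.94 times the UMIs expected from it. That call was lost with free RNA subtracted, at a log2 ratio of -2.60 for Fhl5, against -1.41, and without barcodes rich in protamine UMIs, at -1.11.

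**Figure D3:**
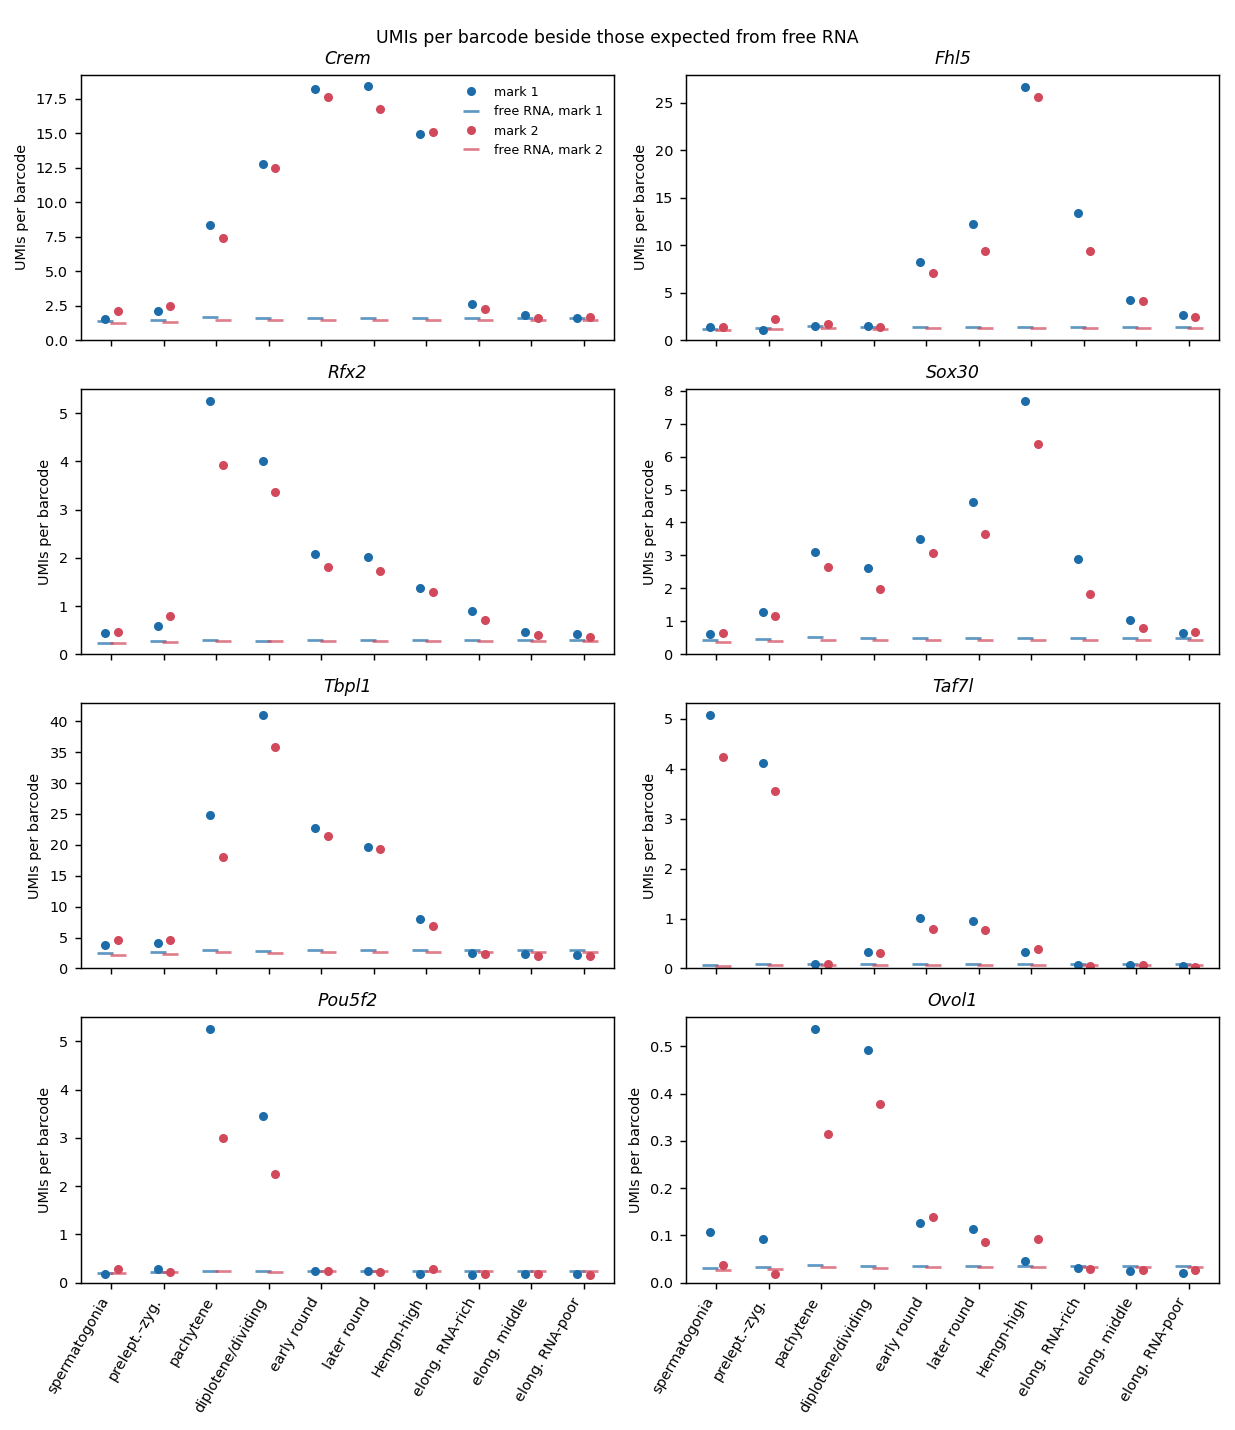
UMIs per barcode of each gene (linear axis from 0, points) by stage and mark, beside the UMIs per barcode expected from free RNA (short horizontal lines). Pou5f2 lies on the lines in round and elongating spermatids, Taf7l lies on them in pachytene cells, and Fhl5 stays above them in all 3 parts of elongating spermatids.

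Other genes of the cAMP response were counted from a list of 14, of which 13 were in the table. Early round spermatids over diplotene or dividing cells had 2 of 10 tested higher and none lower: Creb3l4, a CREB family factor of spermatids, at 4.93-fold and 4.00-fold (446 and 464 against 90.6 and 116 CPM), and Kif17, the kinesin that in mouse carries FHL5 out of the nucleus, at 3.35-fold and 2.86-fold (99.0 and 90.7 against 29.6 and 31.7 CPM). The list's median log2 ratio at this step was -0.39, against -0.23 over all genes tested, of which 7.01% were called higher and 6.42% lower. Prkaca, a catalytic subunit of the cAMP-dependent kinase, was called higher at diplotene, with 56.7 and 60.1 CPM against 34.7 and 31.9 CPM in pachytene cells, as was Creb3l4, at 2.03-fold and 1.66-fold. In pachytene over preleptotene to zygotene cells 4 of 11 tested were lower and none higher, against 7.37% and 8.88% of all genes. They were Creb3l4, at a ratio of 0.383 and 0.449, Kif17, at 0.256 and 0.262, and the coactivators Crebbp, at 0.268 and 0.366, and Ep300, at 0.270 and 0.287. Prm1, a protamine gene counted for the free RNA estimate, also went from 18939 to 4052 CPM over both marks at this step. The part of free RNA in these calls was not tested.

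Of 9 genes known to need CREM in mouse spermatids, the 4 protamine and transition protein genes were gate markers and were not counted, and Egr2 had no row of its own in the table. The 4 that remained were called higher in early round spermatids than in diplotene or dividing cells, against 7.01% of all genes, with a median log2 ratio of 1.69, against -0.23 over all genes tested. Camk4, a calcium-dependent kinase, was 11.1-fold and 9.01-fold higher (67.6 and 62.3 against 6.09 and 6.91 CPM), Ace, the angiotensin-converting enzyme with its own testis form, 4.30-fold and 3.31-fold, Smcp, a capsule protein of sperm mitochondria, 2.96-fold and 2.56-fold, and Odf1, an outer dense fibre protein, 2.30-fold and 1.90-fold. The list was chosen for genes that need CREM in spermatids, so a rise into round spermatids was largely set by that choice. At diplotene, where Crem was first called higher, Ace alone of the 4 was called higher and none was lower, against 5.95% and 6.81% of all genes. At the step into pachytene 3 of the 4 were called lower, against 7.37% of all genes: Odf1 at a ratio of 0.247 and 0.197, Smcp at 0.272 and 0.234 and Ace at 0.357 and 0.336. Odf1 stood at 423 and 710 CPM in preleptotene to zygotene cells, above the 325 and 299 CPM of early round spermatids. Free RNA was put at 31.5% and 24.8% of the UMIs of preleptotene to zygotene cells and at 11.6% and 12.2% in pachytene cells. Its part in these falls and in that level of Odf1 was not tested. Smcp was also 1.80-fold and 1.90-fold higher in RNA-rich elongating than in Hemgn-high spermatids, a step at which Camk4 was lower at a ratio of 0.617 and 0.652.

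Tbpl1 (chromosome 10, 22703879 to 22731938, reverse strand) rose at pachytene and at diplotene, peaked there, and fell at 2 steps in spermatids. Under mark 1 it held 233 CPM in spermatogonia, 288 in preleptotene to zygotene, 558 in pachytene, 1092 in diplotene or dividing, 722 in early round, 587 in later round, 229 in Hemgn-high and 85.4 CPM in RNA-rich elongating cells. Under mark 2 it held 292, 278, 487, 1074, 729, 654, 203 and 93.7 CPM in the same order. From preleptotene to RNA-rich elongating cells, levels went up to diplotene and then down at each stage under both marks. Pachytene over preleptotene to zygotene cells gave 1.94-fold (1.72 to 2.20) and 1.75-fold (1.55 to 1.99), and diplotene or dividing over pachytene cells 1.96-fold (1.91 to 2.01) and 2.20-fold (2.14 to 2.27). Preleptotene to zygotene cells held 1.54 and 1.93 times the UMIs expected from free RNA, near the 1.96 and 1.57 times of Leydig cells. With free RNA subtracted the log2 ratio of Tbpl1 at pachytene was 1.66, against 0.89 as counted, and without protamine-rich barcodes it was 0.75 and the call was lost. The step into early round spermatids, at a ratio of 0.661 (0.645 to 0.678) and 0.679 (0.664 to 0.695), met the 1.5-fold limit under mark 1 and missed it under mark 2. It was called lower with stricter gates and with free RNA subtracted, at log2 ratios of -0.69 and -0.62 for Tbpl1, against -0.58. Hemgn-high over later round spermatids was called lower at 0.390 (0.363 to 0.418) and 0.311 (0.284 to 0.340), and RNA-rich elongating over Hemgn-high spermatids at 0.373 and 0.461. With median ratio scaling that last log2 ratio of Tbpl1 was -0.39, against -1.29, and its call was lost. In the RNA-rich elongating part the UMIs were 0.867 and 0.918 times those expected from free RNA. The gene overlaps an exon of Slc2a12 on the opposite strand, and whether counting used strand is not stated.

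Gtf2a1l, the germline relative of the TFIIA subunit that pairs with TBPL1 in testis, was called higher at the same early steps as Tbpl1. It was higher at pachytene, with 193 and 177 CPM against 104 and 86.9 CPM in preleptotene to zygotene cells, and at diplotene, with 360 and 364 CPM against 193 and 177 CPM in pachytene cells. Its general counterpart Gtf2a1 was lower at diplotene, at a ratio of 0.551 and 0.455. Tbp, the TATA-binding protein itself, rose to 94.7 and 93.5 CPM in pachytene cells, against 54.6 and 51.0 CPM in preleptotene to zygotene cells, and fell at the same step as Tbpl1, to a ratio of 0.231 and 0.138 in Hemgn-high over later round spermatids. The list of general machinery held 20 genes of the table. At pachytene 3 were higher and 4 lower of 20 (8.88% and 7.37% of all genes tested), and at diplotene 1 higher and 3 lower of 19 (5.95% and 6.81%). In early round spermatids 1 was higher and 1 lower of 20 (7.01% and 6.42%). In Hemgn-high spermatids none was higher and 3 lower of 18 (4.83% and 6.31%). The list's median log2 ratio at diplotene was 0.01, against -0.09 over all genes tested.

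Taf7l (chromosome X, 134460118 to 134476490, reverse strand) was highest in spermatogonia, dropped to the level of free RNA in pachytene cells and came back at a lower level in round spermatids. It held 319 and 271 CPM in spermatogonia, 286 and 216 CPM in preleptotene to zygotene cells and 1.91 and 2.52 CPM in pachytene cells. The ratio of pachytene over preleptotene to zygotene cells was 0.0067 (0.00433 to 0.00997) and 0.0117 (0.00782 to 0.0169). The pachytene UMIs, 27 and 33, were 0.913 and 1.42 times those expected from free RNA, against 67.3 and 76.7 times in spermatogonia. Without thinning, 8.20% and 7.95% of pachytene barcodes had a Taf7l UMI at a median depth of 37384 UMIs, against 8.33% and 18.2% of Leydig barcodes at 12790 UMIs. The pachytene share was thus not above that of Leydig cells. Thinned to 10000 UMIs per barcode the shares were 1.89% (0.698 to 4.07%) and 2.27% (0.986 to 4.43%) of pachytene barcodes, against 93.8% and 91.7% of spermatogonia.

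After pachytene Taf7l stood at 8.63 and 9.27 CPM in diplotene or dividing cells, 32.0 and 26.7 CPM in early round, 28.3 and 26.4 CPM in later round and 9.32 and 11.3 CPM in Hemgn-high spermatids. Early round spermatids held 11.2 and 12.1 times the UMIs expected from free RNA, and their counting intervals (29.0 to 35.1 and 24.6 to 29.0 CPM) do not overlap those of diplotene or dividing cells (7.17 to 10.3 and 7.62 to 11.2 CPM). The ratio of the early round level to diplotene or dividing cells was 3.70 (3.02 to 4.57) and 2.88 (2.35 to 3.57). Early and later round spermatids did not differ beyond counting error, with ratios of 0.883 (0.769 to 1.02) and 0.989 (0.861 to 1.14). Elongating spermatids held 0.512 to 1.18 times the amount of free RNA. Levels after pachytene were below 50 CPM, so none of these steps could be called.

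Taf7, the autosomal gene of the general subunit, had a different course. It was called lower at preleptotene, with 130 and 110 CPM against 207 and 188 CPM in spermatogonia. It still held 72.0 and 75.2 CPM in pachytene cells, 19.4 and 22.3 times the amount of free RNA, and was called lower at diplotene, at 24.1 and 23.1 CPM. In early round spermatids, where Taf7l held 11.2 and 12.1 times the UMIs expected from free RNA, Taf7 held 2.16 and 2.78 times them. Taf1, which encodes the largest TFIID subunit and also lies on chromosome X, stood at 0.284 and 0.153 CPM in pachytene cells against 83.5 and 70.6 CPM in preleptotene to zygotene cells. Taf4b, a germline TFIID subunit on an autosome, was lower at the same step at a ratio of 0.0442 and 0.0733.

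Rfx2 (chromosome 17, 56775897 to 56831013, reverse strand) rose at pachytene, before the stages at which mouse mutants arrest, and fell at 2 later steps. It held 27.8 and 29.7 CPM in spermatogonia, 40.7 and 47.8 CPM in preleptotene to zygotene cells, and 118 and 106 CPM in pachytene cells, 2.90-fold (2.11 to 4.12) and 2.21-fold (1.64 to 3.05) over the stage before. Diplotene or dividing cells held 107 and 100 CPM, a ratio of 0.904 (0.842 to 0.969) and 0.952 (0.880 to 1.03) to pachytene cells, so under mark 2 these neighbours did not differ beyond counting error. Early round spermatids held 66.2 and 61.2 CPM and were called lower, at 0.621 (0.571 to 0.675) and 0.610 (0.564 to 0.660); with Leiden clusters in place of gates the log2 ratio of Rfx2 was -0.54, against -0.72, and this call was lost. Early and later round spermatids (60.5 and 58.8 CPM) did not differ beyond counting error. Hemgn-high spermatids, at 39.7 and 38.1 CPM, were called lower than later round spermatids at 0.656 and 0.649, a call that was lost under 5 of the other settings. Rfx2 held 17.4 and 14.3 times the UMIs expected from free RNA in pachytene cells and 6.38 to 7.19 times in early and later round spermatids, against 3.49 and 2.58 times in Leydig cells, on 24 and 15 UMIs. Spermatogonia, at 1.82 and 2.02 times, and the middle (1.60 and 1.48) and RNA-poor elongating spermatids (1.47 and 1.32) lay below the Leydig values. Rfx2 was thus not above its Leydig factor there. That factor rests on few UMIs and may not compare between kinds of cells, and whether it is background was not tested.

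Of a list of 9 RFX family and partner genes with Foxj1, the regulator of motile cilia, 3 of 10 were called higher and 1 lower in early round spermatids than in diplotene or dividing cells, the step at which Rfx2 was called lower. Of all genes tested there, 7.01% were higher and 6.42% lower. Rfx1 was 3.15-fold and 2.15-fold higher (61.7 and 54.5 against 19.6 and 25.4 CPM), Rfx4 1.82-fold and 1.99-fold, and Foxj1 1.80-fold and 1.66-fold (86.3 and 79.9 against 48.0 and 48.2 CPM). Rfx8 was lower there, at 0.440 and 0.447, after it had been called higher at diplotene by 4.46-fold and 4.15-fold (169 and 177 against 37.9 and 42.7 CPM). Rfxap, a partner of RFX5, was lower at diplotene at 0.212 and 0.161. In Hemgn-high over later round spermatids, where Rfx2 was also called lower, Foxj1 was the 1 gene of 10 called, lower at 0.328 and 0.237. Of all genes tested there, 4.83% were higher and 6.31% lower. The list's median log2 ratio in early round spermatids was 0.26, against -0.23 over all genes tested.

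Sox30 (chromosome 11, 45980310 to 46017994, forward strand) rose in early round spermatids and again in Hemgn-high spermatids, and fell in elongating spermatids. Under mark 1 it held 39.0 CPM in spermatogonia, 89.9 in preleptotene to zygotene, 69.8 in pachytene, 70.1 in diplotene or dividing, 112 in early round, 138 in later round, 221 in Hemgn-high, 96.9 in RNA-rich, 61.0 in middle and 55.1 CPM in RNA-poor elongating cells. Under mark 2 it held 42.1, 70.6, 71.5, 59.2, 105, 124, 189, 72.2, 51.4 and 58.1 CPM in the same order. The round spermatid stages stood in the same ascending order under both marks and above every spermatocyte stage. Early round spermatids over diplotene or dividing cells gave 1.59-fold (1.47 to 1.73) and 1.77-fold (1.63 to 1.93), Hemgn-high over later round spermatids 1.60-fold (1.47 to 1.74) and 1.52-fold (1.37 to 1.68), and RNA-rich elongating over Hemgn-high spermatids 0.438 (0.401 to 0.478) and 0.383 (0.343 to 0.428). With Leiden clusters in place of gates both rises of Sox30 lost their call, at log2 ratios of 0.51 in early round spermatids, against 0.72, and 0.36 in Hemgn-high spermatids, against 0.66. The Hemgn-high call was also lost with stricter gates (0.58), and the fall in elongating spermatids with median ratio scaling (-0.40, against -1.29). Levels in preleptotene to zygotene cells were called higher than in spermatogonia, on 84 and 65 UMIs. This call was lost with free RNA subtracted, although the log2 ratio of Sox30 was then 1.81, against 0.99, and also with median ratio scaling (0.72) and without protamine-rich barcodes (1.19). Spermatogonia held 1.46 and 1.81 times the UMIs expected from free RNA, pachytene cells 5.92 and 6.13 times and Hemgn-high spermatids 15.3 and 14.9 times. The median was 3 UMIs per early round and 6 per Hemgn-high barcode.

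Among the relatives of Sox30, Sox5 was called higher at diplotene, by 3.19-fold and 2.28-fold, and in early round spermatids, by 6.75-fold and 4.85-fold (453 and 433 against 67.1 and 89.2 CPM). Its partner Sox6, another group D factor, was higher in early round spermatids by 3.13-fold and 3.02-fold. Both were lower in RNA-rich elongating than in Hemgn-high spermatids, Sox5 at 0.122 and 0.0956 and Sox6 at 0.277 and 0.212. Of the 7 SOX, POU and OVO relatives tested in early round spermatids, 2 were higher and 1 lower, against 7.01% and 6.42% of all genes. Their median log2 ratio was -0.76, against -0.23 over all genes tested.

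Pou5f2 (chromosome 13, 78024902 to 78026295, forward strand, 1 exon) stood far above free RNA in pachytene and diplotene or dividing cells, and near it in the other germ stages. It held 118 and 80.4 CPM in pachytene cells, 6.12-fold (3.86 to 10.4) and 6.17-fold (3.52 to 11.98) over preleptotene to zygotene cells (19.3 and 13.03 CPM), and 91.8 and 67.2 CPM in diplotene or dividing cells. Early round spermatids held 7.87 and 8.43 CPM and were called lower than diplotene or dividing cells, with 0.0857 (0.0697 to 0.104) and 0.125 (0.106 to 0.147) of their level. The log2 ratio of Pou5f2 at this step was -3.29; its call was lost with median ratio scaling, at -3.21, and with Leiden clusters in place of gates, at -2.08. The UMIs were 21.1 and 12.9 times those expected from free RNA in pachytene cells and 14.9 and 10.0 times in diplotene or dividing cells, against 1.03 and 1.08 times in early round spermatids. In every other germ stage the factor lay between 0.678 and 1.48; Leydig cells had 19 and 5 UMIs, 3.34 and 1.02 times. The intervals of the marks did not overlap in pachytene cells (112 to 124 under mark 1 and 75.6 to 85.4 CPM under mark 2) or in diplotene or dividing cells (86.8 to 96.9 and 62.7 to 72.1 CPM). This was not particular to Pou5f2. In pachytene cells the intervals of Fhl5, Rfx2, Tbpl1 and Ovol1 did not overlap between the marks either, while those of Crem, Sox30 and Taf7l did. The share of all genes with such a gap was not counted.

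Within the pachytene gate Pou5f2 was uneven from barcode to barcode. No UMI was seen in 40.8% of the 669 pachytene barcodes, where an even spread of the same UMIs would leave 1.73% empty, and the 90th percentile was 14.2 and the maximum 47 UMIs. For Rfx2, which had a similar number of UMIs in these cells, 7.62% of barcodes were empty, against 1.05% for an even spread. Thinned to 10000 UMIs, 42.0% (36.5 to 47.6%) and 34.1% (29.2 to 39.3%) of pachytene barcodes had a Pou5f2 UMI, against 29.2% (12.6 to 51.1%) and 13.6% (2.91 to 34.9%) of Leydig barcodes; the unthinned shares were 60.6% and 58.0% at a median depth of 37384 UMIs, against 29.2% and 18.2% of Leydig barcodes at 12790 UMIs. The intervals of the thinned shares overlap between pachytene and Leydig barcodes under both marks.

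The 1400 pachytene and diplotene or dividing barcodes were therefore put in 4 equal bins along a marker axis, the score of the diplotene list minus that of the pachytene list, after the uneven spread had been seen. Pou5f2 held 31.6 and 27.1 CPM in bin 1, 164 and 134 CPM in bin 2, 135 and 79.0 CPM in bin 3 and 36.3 and 51.1 CPM in bin 4. All of bin 1 and 319 of 350 barcodes of bin 2 were pachytene by gate, and all of bins 3 and 4 were diplotene or dividing. Median depth was 31458, 46343, 25295 and 25676 UMIs in the same order, so bin 2 also held the most RNA. Along the same axis Crem held 163 and 171, 212 and 231, 344 and 377, then 328 and 372 CPM, and Tbpl1 held 391 and 367, 681 and 621, 1075 and 1033, then 1111 and 1110 CPM. Rfx2 stayed between 98.2 and 124 CPM and Sox30 between 59.1 and 73.5 CPM in the 4 bins. Pou5f2 was thus higher in both middle bins than in both outer ones under each mark, which none of those 4 genes was under mark 1 and mark 2 alike.

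**Figure D4:**
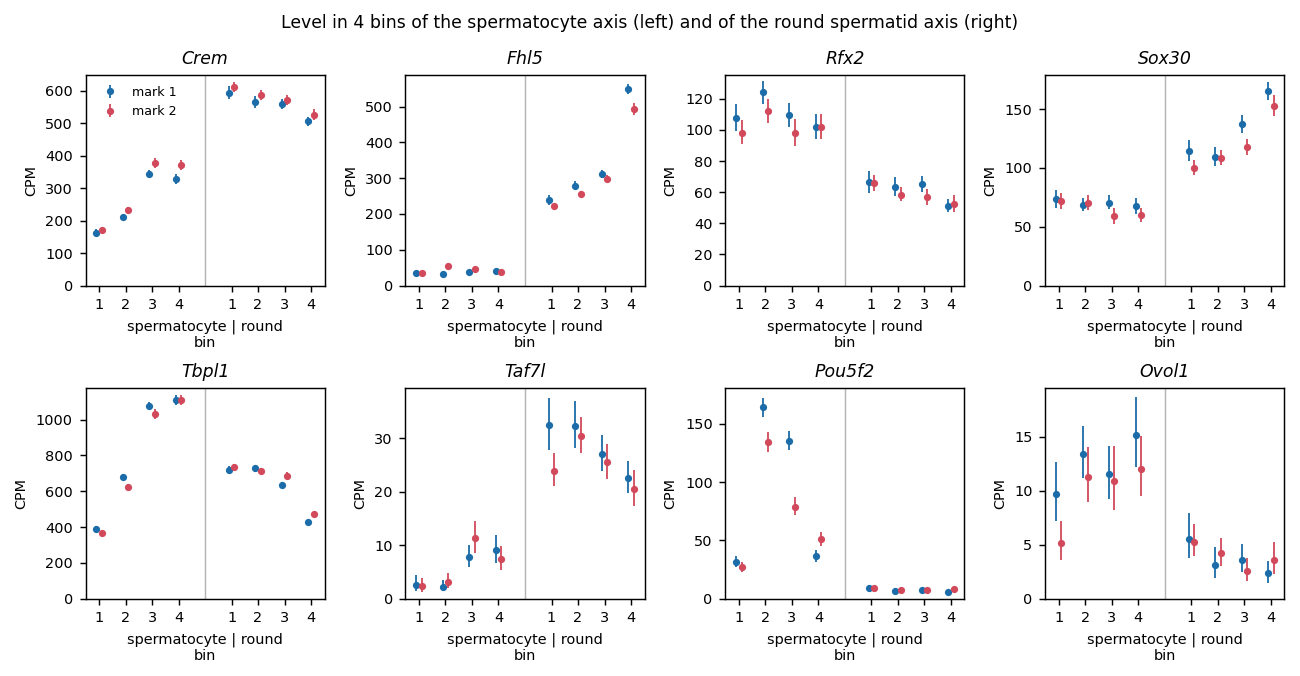
Level of each gene (CPM, linear axis from 0) in 4 bins of the spermatocyte marker axis (left of the grey line, pachytene to dividing) and of the round spermatid marker axis (right, early to later with Hemgn-high cells), by mark, with 95% counting intervals. Pou5f2 is high in spermatocyte bins 2 and 3, and Fhl5 and Sox30 are highest in the last round spermatid bin, which holds the least Tbpl1 of the round spermatid bins.

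The gene lies in an intron of Fam172a on the same strand, with no Fam172a exon inside it. Fam172a held 20.1 and 20.9 CPM in pachytene cells and 6.65 and 5.65 CPM in diplotene or dividing cells, a stage at which Pou5f2 was still at 91.8 and 67.2 CPM. The POU relatives Pou2f2 and Pou6f1 were also called higher at pachytene, Pou2f2 by 15.4-fold and 4.51-fold (165 and 176 against 10.7 and 39.1 CPM) and Pou6f1 by 4.25-fold and 3.96-fold. Both were called lower already at diplotene, at a ratio of 0.123 and 0.0707 for Pou2f2 and of 0.416 and 0.314 for Pou6f1, where Pou5f2 was at 0.778 and 0.837.

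Ovol1 (chromosome 19, 5549136 to 5560646, reverse strand) was seen at low counts, with its highest levels in the same cells. It held 12.1 and 8.48 CPM in pachytene cells, on 170 and 111 UMIs, and 13.1 and 11.3 CPM in diplotene or dividing cells, on 185 and 134 UMIs. These were 14.4 and 9.67 times, then 14.2 and 11.96 times the UMIs expected from free RNA. The stages did not differ beyond counting error under mark 1, at a ratio of 1.09 (0.877 to 1.35), and did so narrowly under mark 2, at 1.33 (1.03 to 1.73). Early round spermatids held 4.04 and 4.69 CPM, a ratio of 0.309 (0.224 to 0.419) and 0.415 (0.318 to 0.540) to diplotene or dividing cells. Elongating spermatids held 0.545 to 0.914 times the amount of free RNA. Its relative Ovol2 was called higher at pachytene, with 91.8 and 63.4 CPM against 25.7 and 28.2 CPM in preleptotene to zygotene cells, and at diplotene, with 184 and 174 CPM against 91.8 and 63.4 CPM in pachytene cells. Ovol2 was then called lower in early round spermatids, at 0.559 and 0.622.

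Along the round spermatid axis, again cut in 4 bins by the score of the later list minus that of the early list, Fhl5 and Sox30 were highest in the last bin. Fhl5 held 239 and 221 CPM in bin 1, 279 and 255 CPM in bin 2, 312 and 297 CPM in bin 3 and 549 and 494 CPM in bin 4, and Sox30 115 and 100.1, 110 and 109, 137 and 118, then 165 and 153 CPM. Crem held 594 and 611 CPM in bin 1 and 506 and 526 CPM in bin 4. Tbpl1 held 720 and 738 CPM in bin 1 and 430 and 472 CPM in bin 4. Bin 4 held 166 of the 184 Hemgn-high barcodes, so the axis and that gate share cells.

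Promoter sequences were read for the members of different timing. RefSeq entries on build GRCm38.p6 gave 7 start sites for 6 members, and the 220 bases from 250 to 31 bases before each start were searched on both strands for the full cAMP response element TGACGTCA, its short form TGACG, which lies within the full one, and the X-box core GTTGCC. They are shown for Fhl5, whose coactivator role is at such elements, for Rfx2, whose protein binds X-boxes, and for Pou5f2 and Taf7l, the members with the sharpest changes of level, with matches in capitals and each read 5′ to 3′ toward its gene.
Fhl5, chr4:25242883-25243102, reverse strand: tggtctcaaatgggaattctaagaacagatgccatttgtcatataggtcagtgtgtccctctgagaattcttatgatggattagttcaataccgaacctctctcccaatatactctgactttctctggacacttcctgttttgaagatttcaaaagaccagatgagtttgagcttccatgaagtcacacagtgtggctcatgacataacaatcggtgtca
Rfx2, chr17:56831039-56831258, reverse strand: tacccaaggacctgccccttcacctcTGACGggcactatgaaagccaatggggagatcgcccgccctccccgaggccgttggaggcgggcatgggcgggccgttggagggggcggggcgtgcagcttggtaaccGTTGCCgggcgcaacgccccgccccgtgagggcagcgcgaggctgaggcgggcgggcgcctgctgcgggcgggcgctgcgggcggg
Pou5f2, chr13:78024652-78024871, forward strand: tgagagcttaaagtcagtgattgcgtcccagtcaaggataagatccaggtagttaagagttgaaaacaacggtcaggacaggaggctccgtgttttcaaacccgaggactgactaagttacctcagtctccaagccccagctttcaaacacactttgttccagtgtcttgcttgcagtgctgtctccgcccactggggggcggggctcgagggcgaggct
Taf7l, chrX:134476521-134476740, reverse strand: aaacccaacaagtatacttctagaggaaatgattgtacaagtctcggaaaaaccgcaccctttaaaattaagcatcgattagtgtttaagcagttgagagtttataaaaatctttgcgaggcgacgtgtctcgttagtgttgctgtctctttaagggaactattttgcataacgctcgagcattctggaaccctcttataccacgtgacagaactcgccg

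The Rfx2 window held 1 short form TGACG, 224 to 220 bases before the start, and 1 X-box core GTTGCC, 116 to 111 bases before it. No other window of these members held any of the 3 motifs. Over all 32851 promoter entries of the same length, 1.14% held TGACGTCA, 14.8% held TGACG and 8.96% held GTTGCC. These matches are letters in a window, and binding was not measured.

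The genes whose course over the stages was most like that of each member were taken as the 3 with the highest Pearson correlation of log2(CPM + 10) over 20 values, 10 stages under each of 2 marks, among 6804 genes. The stages of 1 mark share a library and free RNA, so these values describe likeness and carry no test. Crem was followed most closely by Ccdc175 (0.990), Oit1 and Tmem89, each highest in early round spermatids, and Fhl5 by Samd4 (0.992), Col22a1 and Aqp7, each highest in Hemgn-high spermatids. Aqp7 encodes the aquaglyceroporin of spermatids. Tbpl1 lay nearest to Tomm22 (0.992), Cep72 and Amn1, and Rfx2 to AY702103 (0.987), Ndufaf3 and Gm31138. Taf7l lay nearest to Fn1 (0.991), to the Y-linked ubiquitin-activating enzyme gene Uba1y and to the X-linked protease gene Usp26, and Pou5f2 to 4930581F22Rik (0.983), Lef1os1 and Ankrd54. Sox30 had looser neighbours, Ppp1r2 (0.952), 1700101I11Rik and Eloc, and so did Ovol1, with Gm10762 (0.945), Ttll5 and Ccdc40. Among the members themselves the highest correlations were those of Rfx2 with Tbpl1 and of Pou5f2 with Ovol1 (0.86 each), and the lowest was that of Fhl5 with Pou5f2 (-0.87).

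Barcodes under 5000 UMIs carried all 8 transcripts at a nearly even spread. Over these 11524 barcodes the variance of a member's UMIs was 1.01 to 1.13 times its mean, and no barcode had more than 12 UMIs of any member. Over the 8807 barcodes with at least 10000 UMIs it was 1.45 times the mean for Ovol1, 3.22 to 3.51 times for Sox30, Rfx2 and Taf7l, and 11.7 to 25.6 times for Crem, Pou5f2, Fhl5 and Tbpl1. Depth also varies more among the deeper barcodes, and its part in these values was not tested.

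Among other regulators of gene expression in meiotic and haploid germ cells, a list of 9, 5 were called higher and none lower at preleptotene, against 3.78% and 5.39% of all genes. Among them were Mybl1, the A-MYB factor of meiosis (70.6 and 80.4 against 12.2 and 17.8 CPM in spermatogonia), and Brdt, the testis bromodomain protein (211 and 189 against 57.3 and 78.3 CPM). Spz1, also among the 5, rose 1.67-fold and 2.13-fold. The protamine gene Prm1 rose at this step too, from 10495 to 18939 CPM over both marks. The part of free RNA in these rises was not tested. Sox30 was the only member called higher at that step. At diplotene, where Crem and Tbpl1 were called, 3 were higher and 1 lower, against 5.95% and 6.81% of all genes. Zmynd15, a repressor of haploid genes, was higher by 4.15-fold and 4.49-fold and Papolb, the testis poly(A) polymerase, by 2.02-fold and 2.45-fold. In early round spermatids 2 were higher and 3 lower, against 7.01% and 6.42% of all genes. Nr6a1, the germ cell nuclear factor, rose 1.72-fold and 1.71-fold, and Mybl1 fell to a ratio of 0.235 and 0.242. The list's median log2 ratio was 0.95 at preleptotene, 0.43 at diplotene and -0.33 in early round spermatids, against -0.03, -0.09 and -0.23 over all genes tested.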

How the data were processed

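The authors deposited 1 table of raw UMI counts per gene and barcode. Per the labels' protocols, cells were dispersed by enzymes, debris was removed by sorting, and 3′ libraries were made on a droplet platform. Per the submitters' processing notes, Cell Ranger 1.3.1 and Seurat 3.2.2 were used on build GRCm38; how barcodes were filtered is not stated.

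The 8 members and the lists of other genes were chosen with earlier results of these data known. Markers were listed before the table was read, and the gating rule was set after. For barcodes with at least 10000 UMIs, log2(1 + UMIs per 10000) was scaled per gene, capped at 10 and averaged per marker list; the leading class needed a score above 0.5 and a lead of 0.2. Round spermatids were divided by the difference of the later and early scores, and those with at least 2 Hemgn UMIs per 10000 were set apart. Of the 8807 barcodes, 1316 got no class. Total UMIs per barcode had a median of 6061 under mark 1 and 5509 under mark 2, and 31.7% and 30.8% of barcodes passed the 10000 limit.

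UMIs were summed per stage and mark. Genes with at least 20 UMIs over both stages count as tested, and ratios used a floor of 3 UMIs per stage. Intervals are exact Poisson for levels, conditional binomial for ratios and Clopper-Pearson for shares. Free RNA per barcode was the median protamine and transition protein UMIs of a stage over their share in 4995 barcodes under 5000 UMIs that no marker list named; from the round spermatid on, the value over pachytene and diplotene or dividing barcodes together was used. No doublet caller was run; barcodes of very high UMIs were left out as an alternative. Named genes are all members, the 3 nearest genes by correlation and, per list, up to 4 called genes of largest ratio. Fam172a, Prm1, Spz1, the bins along marker axes and the UMI bands were added after values had been seen. The call rule was also run on simulated counts, and no call rests on their outcome, which is not given here. Python 3.11.15, numpy 2.4.6, scipy 1.17.1, sklearn 1.9.0, leidenalg 0.10.2 and matplotlib 3.10.9 were used. Positions are from GENCODE on GRCm38.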

Additional observations from a re-analysis of the deposited data

How the results depend on the processing

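Of 21 called steps, 11 higher and 10 lower, no step changed direction under the 7 planned settings or the 2 settings chosen after seeing the data. A 2-fold limit left 4 higher and 7 lower. With median ratio scaling 10 were higher and 5 lower, since the calls of Fhl5, Sox30 and Tbpl1 in RNA-rich elongating spermatids, among others, were lost. Stricter gates kept 19 of the 21, free RNA subtraction 19, leaving out barcodes above the 98th percentile of UMIs 20, no minimum of CPM and UMIs 21, leaving out protamine-rich barcodes 18 and gating from 6000 UMIs 21. Leiden clusters in place of gates gave 9 stages, with no preleptotene class, and kept 9 calls and lost 6: Crem, Rfx2, Sox30 and Pou5f2 in early round spermatids and Rfx2 and Sox30 in Hemgn-high spermatids. Each gene kept its highest stage under these settings, except that Taf7l moved to preleptotene to zygotene cells when barcodes from 6000 UMIs were gated.

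No paired analysis was possible because each genotype has 1 library and the barcode marks are not tied to a genotype. Leaving out a library would leave 1 mark. Depth limits Ovol1, Taf7l after pachytene and all preleptotene to zygotene values, which rest on 121 barcodes. Free RNA gave every stage a level above 0 for each gene.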
